A study of Rattus norvegicus with 16 samples.

Results

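Explants of the organ of Corti of newborn rats were compared with explants of the stria vascularis of the same age after 24 h in culture. The comparison used 8 of the 16 arrays of the study, chosen by their labels alone: 4 cultured organ of Corti arrays and 4 cultured stria arrays. In each region 2 arrays came from hypoxic and 2 from normoxic culture. Each array held RNA pooled from 12 cochleae. Explants were kept in DMEM/F12 medium with fetal calf serum, insulin and transferrin. The hypoxic explants passed through 5 h of low oxygen that began 3 h after plating and then recovered for 16 h in normoxia, while the normoxic explants stayed in normal oxygen throughout. Values of 4 arrays of a region are listed as hypoxia repeat 1, hypoxia repeat 2, normoxia repeat 1 and normoxia repeat 2. No source used here says whether the 2 repeats of a group came from separate dissections, so p-values measure only the spread between these arrays. The repeat number also marks the scan session, and repeat was a term of the model.

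The organ of Corti is the sensory strip of the cochlea, in which hair cells turn sound into release of glutamate onto the endings of spiral ganglion neurons, and supporting cells hold the hair cells in place. The stria vascularis is a vascularised epithelium of the lateral wall. Its marginal cells secrete potassium into the endolymph through a channel made of Kcnq1 and Kcne1, driven by Na,K-ATPase, and its melanocyte-like intermediate cells generate the endocochlear potential with the channel Kcnj10. At birth the rat cochlea is still maturing and hearing has not begun.

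Signals are intensities on the linear scale of the deposited table, scaled by the authors to the same trimmed mean on every array. Median signals were 742.9 to 807.4 on organ of Corti arrays and 555.4 to 661.9 on stria arrays. The background of an array, taken as the 95th percentile of the 23 controls on it that match no rat sequence, was 236.8 to 772.2 in organ of Corti and 313.5 to 596.2 in stria. The ratio of 3′ to 5′ signal of GAPDH, a measure of RNA integrity, was 1.15 to 1.27 in organ of Corti and 1.20 to 1.39 in stria. Across probe sets, arrays of the same region correlated at r = 0.922 to 0.956 and arrays of different regions at 0.88 to 0.911. The array carries 720 named genes chosen for neurobiology. Probe sets were absent for 16 of 20 hair cell markers listed, and for Tyr, Tyrp1, Dct, Mitf, Pmel, Mlana and Ednrb among the markers of melanocytes. The labelled regions were therefore checked with few markers. Kcne1 was higher in stria on every array, and S100a1, Slc1a3 and Chrna9 were higher in organ of Corti on every array. Other markers went the other way in the test given below. Kcnj16 and Atp1b1 of potassium secretion were higher in organ of Corti, and Fgfr1 of supporting cells was lower there. Hes1 and the brightest probe set for Ngfr of supporting cells did not pass, nor did Kcnma1, Cacna1d and the brightest probe set for Atp2b2 among the hair cell markers. Kcnq1 was not above background on any of the 8 arrays.

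Of 1263 probe sets, 261 (20.7%) differed between cultured organ of Corti and cultured stria at an adjusted p of 0.05 or less in limma with Benjamini-Hochberg adjustment. There were 175 probe sets (13.9%) higher and 86 (6.81%) lower in organ of Corti. The split depends on the scaling: quantile normalization gave 147 higher and 104 lower, and centring of each array on its median gave 102 higher and 170 lower. In all 3 scalings 101 probe sets passed as higher and 81 as lower, and 0 passed in opposite directions. The median log2 difference (organ of Corti minus stria) over all probe sets was 0.14 with values as deposited. Quantile normalization moved this median by -0.19 and centring by -0.32. Higher and lower differences also had different sizes. Among probe sets higher in organ of Corti the median absolute log2 difference was 1.30, with 46 past 4-fold, and 47 had a stria signal not above background. Among those lower it was 0.95, with 2 past 4-fold, and 4 had an organ of Corti signal not above background. The median signal in the region with the higher level was 2116.4 for the probe sets higher in organ of Corti and 8294.9 for those lower. Counted by gene, each with its brightest probe set, 147 of 720 genes (20.4%) differed. Of these 103 (14.3% of all genes) were higher and 44 (6.11%) lower, and the median log2 difference of all genes was 0.17. The 4 arrays of organ of Corti lay all above or all below the 4 of stria for 248 probe sets (19.6%) and 139 genes (19.3%). In these pieces of tissue, fewer cells of a type and less RNA per cell cannot be told apart.

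**Figure D1:**
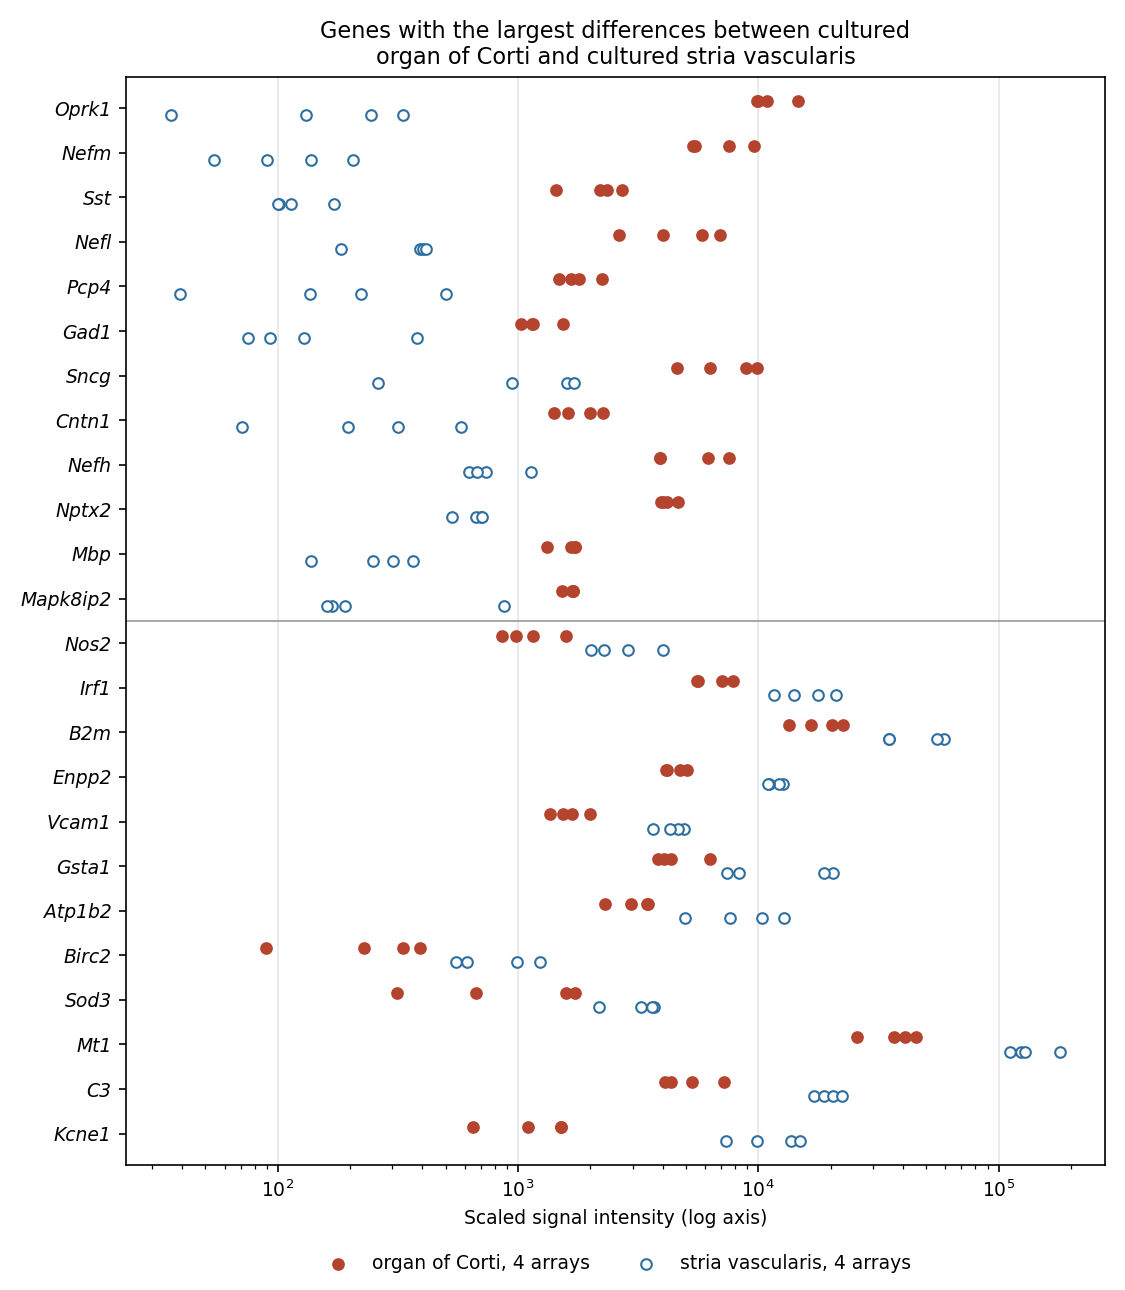
Signal per array, on a log axis, of the 12 genes with the largest difference in each direction; filled red points are the 4 cultured organ of Corti arrays of a gene and open blue points the 4 cultured stria arrays. The regions do not overlap for any of the 24 genes, which the choice of genes required, and the gaps are widest for Oprk1 and Nefm among the higher genes and for Kcne1 among the lower genes.

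The genes furthest above stria in cultured organ of Corti included an opioid receptor, all 3 neurofilament subunits and other genes of neurons. Oprk1, the kappa opioid receptor, had signals of 14657.8, 9977.1, 10918.2 and 9890.9 in organ of Corti, against 333.6, 35.8, 245.3 and 130.6 in stria. All organ of Corti arrays were far above all stria arrays, and none of the stria arrays was above its background. Its log2 difference was 6.11 ± 0.38 (SE, adjusted p = 1.1e-05), and with the stria signals raised to background the difference was at least 27.5-fold. A further probe set for Oprk1 gave a log2 difference of 4.74. The neurofilament subunits, which form the scaffold of large axons, were all higher. Nefm, the medium subunit, had signals of 5361.0, 5449.8, 9572.7 and 7542.0 in organ of Corti, against 137.7, 89.9, 54.1 and 205.1 in stria. The stria signals were again not above background on any array, and the difference was at least 16.6-fold (log2 5.75 ± 0.36, adjusted p = 1.1e-05). Nefl, the light subunit, had 4003.0, 2622.9, 6943.0 and 5830.0 in organ of Corti, against 402.7, 413.3, 183.2 and 391.9 in stria. Nefh, the heavy subunit, had 3903.0, 3884.9, 7532.7 and 6205.9 in organ of Corti, against 1127.4, 676.6, 626.2 and 734.6 in stria. Neither gene overlapped between regions, with log2 differences of 3.71 ± 0.36 for Nefl and 2.72 ± 0.26 for Nefh. In organ of Corti all 3 subunits were lower on both hypoxic arrays than on both normoxic arrays, a contrast outside the comparison of the regions. 

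Sncg, the gamma-synuclein of sensory and motor neurons, had 4609.8, 6313.5, 9855.1 and 8880.5 in organ of Corti, against 941.0, 260.8, 1594.4 and 1711.0 in stria. Its regions did not overlap (log2 2.94 ± 0.34, adjusted p = 0.00026). Of the 13 measured genes in a list of neuronal markers, 8 were higher in organ of Corti, none was lower, and the list median was 1.31 against 0.17 for all genes. Beside Nefm, Nefl, Nefh and Sncg these were Gap43, a growth cone protein (log2 1.95), Snap25, which drives vesicle fusion (1.86), Map2 of dendrites (1.31) and Mapt, the axonal tau protein (1.18). The summed signal of the 13 genes was 56709 to 79914 on organ of Corti arrays and 24875 to 33879 on stria arrays. Of 6 measured markers of Schwann cells 3 were higher and 3 did not pass, with a list median of 0.35. Their summed signal was 26099 to 28034 in organ of Corti and 18405 to 23541 in stria. The part of nerve fibres and glia left in the explants in these differences was not tested.

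Genes with other roles stood beside the neuronal structural genes. Sst, the peptide hormone somatostatin, had 1440.1, 2721.4, 2200.1 and 2351.9 in organ of Corti, against 171.0, 100.3, 113.2 and 101.3 in stria. The stria arrays were not above background and the difference was at least 5.21-fold (log2 3.99 ± 0.32, adjusted p = 3.4e-05), although a second, dimmer probe set for Sst gave 0.68 and did not pass. Pcp4, a small calmodulin-binding protein, had 1657.0, 1477.3, 2227.5 and 1789.5 in organ of Corti, against 500.1, 136.6, 222.5 and 39.2 in stria, a difference of at least 4.34-fold. Nptx2, a secreted pentraxin that clusters glutamate receptors, had 4161.6, 4030.6, 3929.4 and 4615.8 in organ of Corti, against 709.4, 530.5, 698.2 and 668.0 in stria. The arrays of each region lay close together (log2 2.66 ± 0.15, adjusted p = 8.2e-06), while a second, dimmer probe set for Nptx2 gave 0.57 and did not pass. Gad1, which makes GABA from glutamate, had 1544.6, 1029.3, 1156.5 and 1146.1 in organ of Corti, against 378.3, 128.7, 75.0 and 92.9 in stria, at least 2.96-fold higher. Mapk8ip2, a scaffold of the JNK kinase pathway, had 1684.4, 1519.1, 1689.5 and 1687.6 in organ of Corti, against 872.9, 159.9, 189.7 and 168.4 in stria. The stria array at 872.9, hypoxia repeat 1, stood far above the other 3 of that region (log2 2.58 ± 0.43, adjusted p = 0.0022). Mbp, the myelin basic protein, had 1725.1, 1665.8, 1722.3 and 1317.2 in organ of Corti, against 250.0, 138.1, 364.5 and 303.0 in stria, with a log2 difference of 2.60 ± 0.29 and no overlap.

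Of 14 measured neural adhesion molecules, 6 were higher and none lower, against 14.3% higher among all genes, with a list median of 0.70. Cntn1, a contactin of axons, had 1615.7, 1986.5, 1405.1 and 2251.5 in organ of Corti, against 195.4, 315.9, 579.0 and 71.0 in stria (log2 2.88 ± 0.53, adjusted p = 0.0037). The other higher members were Cntn4 (at least 1.89-fold), the presynaptic neurexin Nrxn3 (at least 1.63-fold), the matrix proteoglycan Bcan (at least 1.43-fold), the adhesion molecule Ncam1 (log2 1.10) and Cntn3 (log2 1.04). The calls for Bcan and Cntn3 were lost when some single arrays were left out, with adjusted p of 0.056 to 0.058 for Bcan and 0.077 to 0.1 for Cntn3. Of 14 measured genes of synaptic vesicles and release, 4 were higher and none lower, against the same 14.3%, with a median of 0.54. Syp, synaptophysin of the vesicle membrane, had 1482.4, 1021.8, 1749.2 and 1393.2 in organ of Corti, against 592.1, 123.7, 270.6 and 258.8 in stria, at least 3.41-fold higher. Beside Snap25, the other members that passed were the vesicle proteins Syt4 (log2 1.69) and Rab3a (log2 1.27).

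Of the 5 measured genes of supporting and sensory epithelium cells 2 were higher in organ of Corti and 1 was lower. S100a1, a calcium-binding protein of the sensory epithelium, had 30321.4, 29251.2, 32846.0 and 31619.3 in organ of Corti, against 9015.5, 6981.6, 7587.4 and 10267.2 in stria. The arrays of each region lay close together and far from those of the other (log2 1.89 ± 0.12, adjusted p = 1.1e-05). Slc1a3, the glial-type glutamate transporter with which supporting cells clear transmitter, had 14336.9, 12282.8, 12805.1 and 11528.3 in organ of Corti, against 3710.4, 5006.6, 4344.4 and 5419.2 in stria (log2 1.47 ± 0.13). Ntf3, the neurotrophin that feeds spiral ganglion neurons through TrkC, had 4690.4, 3399.6, 3622.6 and 3463.2 in organ of Corti, against 770.5, 530.5, 537.3 and 1068.3 in stria. It was 5.3-fold higher with no overlap (log2 2.41 ± 0.25, adjusted p = 0.00015), and a second probe set gave 3.20. Of the other supporting cell genes, Hes1 (log2 0.03) and Ngfr (0.11) did not pass by their brightest probe sets, while a second probe set for Ngfr passed at 0.72. The receptor Fgfr1 was lower at -0.52 (adjusted p = 0.016). The call for Fgfr1 was lost without organ of Corti normoxia repeat 1, stria hypoxia repeat 1 or stria normoxia repeat 1, with adjusted p of 0.057 to 0.059. Of 4 measured hair cell genes 1 passed. Chrna9, a subunit of the nicotinic receptor with which efferent fibres inhibit hair cells, had 808.8, 731.9, 1049.1 and 736.4 in organ of Corti, against 63.6, 228.0, 373.4 and 50.2 in stria (log2 2.49 ± 0.58, adjusted p = 0.014). The potassium channel Kcnma1 at 0.60, the calcium channel Cacna1d at 0.23 and the calcium pump Atp2b2 at 0.53 did not pass by their brightest probe sets, while the other 3 probe sets for Atp2b2 passed at 1.34, 2.30 and 2.48.

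Ion channels and transmitter receptors gave fewer differences. Of 33 measured potassium channels other than Kcne1 and Kcnq1, 3 were higher and none lower. Kcnj11, the pore of ATP-sensitive potassium channels, had 2499.7, 2000.9, 2500.0 and 2194.8 in organ of Corti, against 538.9, 546.4, 1051.7 and 467.9 in stria (log2 1.86 ± 0.22). Kcnh6, a channel of the erg family, had a log2 difference of 2.53, and Kcnk1, a two-pore leak channel, one of 0.43. The call for Kcnk1 was lost with centring and in 6 of the 8 fits with an array left out (adjusted p of 0.053 to 0.12). The 30 sodium and calcium channel genes held 4 that were higher, namely the ATP-gated P2rx2 and P2rx3, Cacnb3 and Scnn1g, and all 4 calls were lost with centring. The call for P2rx3 was also lost in 4 of the 8 fits with an array left out (adjusted p of 0.05 to 0.082) and that for Scnn1g in 3 (0.055 to 0.067). Among 25 measured genes of glutamate signalling 3 were higher, the receptor subunits Grik4 and Gria2 and the transporter Slc1a3, and Glul, which makes glutamine, was lower at -0.74 ± 0.11. Among 19 of GABA and glycine signalling Gad1 and the receptor Gabbr2 were higher. Of 51 genes of monoamine and acetylcholine signalling 5 were higher: Chrna9, the serotonin-gated channel Htr3a (log2 1.38), Ddc, which makes dopamine and serotonin (1.40), the receptor Adra2c (1.62) and Maob, which breaks monoamines down (0.92). Drd3, a dopamine receptor, was lower at -0.38, a call lost in 7 of the 8 fits with an array left out (adjusted p of 0.051 to 0.14), and the call for Adra2c was lost without organ of Corti hypoxia repeat 2 (adjusted p = 0.053). In each of these 5 lists the share of higher genes lay below the 14.3% of all genes.

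The largest difference in favour of stria was that of Kcne1, the auxiliary subunit of the potassium secretion channel. It had 1510.7, 651.4, 1510.5 and 1099.4 in organ of Corti, against 14979.8, 7314.4, 13685.1 and 9837.1 in stria. Every stria array was several times above every organ of Corti array, and the gene was 9.62-fold lower in organ of Corti (log2 -3.27 ± 0.15, adjusted p = 2.4e-06). A second probe set had 69.1 to 153.7 in organ of Corti, not above background, and 3593.4 to 5904.1 in stria, a log2 difference of -5.20. The partner subunit Kcnq1 had 85.5 to 105.4 in organ of Corti and 97.4 to 303.0 in stria, below background in both. Kcnj10 did not pass (log2 -0.10 ± 0.36). The subunits of Na,K-ATPase went in different directions. Atp1b1, a beta subunit, had 98764.6, 64508.5, 84053.3 and 69059.7 in organ of Corti, against 54601.2, 36033.7, 49133.4 and 36914.2 in stria (log2 0.84 ± 0.10, adjusted p = 0.00024). Atp1b2, another beta subunit, had 2961.8, 3445.4, 2309.5 and 3476.1 in organ of Corti, against 7642.5, 12829.2, 4933.3 and 10399.3 in stria (log2 -1.48 ± 0.14). The regions overlapped for neither subunit, and Atp1b3 was also lower in organ of Corti (log2 -0.63 ± 0.10). Kcnj16, a partner of Kcnj10 in other epithelia, had 2279.3, 2251.5, 1890.9 and 1550.4 in organ of Corti, against 849.1, 390.4, 220.5 and 419.7 in stria (log2 2.19 ± 0.31). In total 2 of 6 measured genes of the potassium secretion list were higher and 2 lower.

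Of 8 measured metallothioneins and antioxidant enzymes 5 were lower in organ of Corti than in stria and none was higher, against 6.11% lower among all genes, and the list median was -0.65. Metallothioneins are small proteins that bind zinc and copper, and their genes are switched on by the zinc-sensing factor Mtf1 at metal response elements. The promoters of Mt1 and Mt2A are shown because the data bear on both genes, with the elements in capitals. They are the 250 bases before the start of each gene in RefSeq (build GRCr8, minus strand), Mt1 at chr19:10832976-10833225 and Mt2A at chr19:10838709-10838958.
Mt1: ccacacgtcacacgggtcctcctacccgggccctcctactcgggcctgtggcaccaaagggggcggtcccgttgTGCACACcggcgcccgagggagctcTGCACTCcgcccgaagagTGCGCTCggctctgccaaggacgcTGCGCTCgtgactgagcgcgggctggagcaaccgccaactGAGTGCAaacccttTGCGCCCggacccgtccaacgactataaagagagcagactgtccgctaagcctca
Mt2A: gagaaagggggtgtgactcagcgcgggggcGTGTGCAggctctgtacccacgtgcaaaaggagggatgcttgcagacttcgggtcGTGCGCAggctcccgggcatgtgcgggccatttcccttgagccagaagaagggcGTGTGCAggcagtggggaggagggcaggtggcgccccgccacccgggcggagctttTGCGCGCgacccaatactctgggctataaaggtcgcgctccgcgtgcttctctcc
A script searched TGCACNC and TGCGCNC on both strands and found 6 matches for Mt1 and 4 for Mt2A, with no overlap between matches. At least 1 match lay in 20.6% of 33469 promoters of the same length and in 198 of 559 promoters of the genes on the array (35.4%). Among genes that passed the test it lay in 32 of 79 higher in organ of Corti (40.5%) and in 14 of 34 lower (41.2%). Promoters with 4 or more matches numbered 4 among the 559, and these included Mt1 and Mt2A. A match is a description of the sequence.

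Mt1 had signals of 41002.1, 25763.0, 45250.8 and 36568.7 in organ of Corti, against 180744.6, 128785.8, 124402.2 and 111557.0 in stria. It was 3.69-fold lower in organ of Corti without overlap (log2 -1.88 ± 0.16, adjusted p = 4.1e-05). Mt2A had 80521.2, 69594.3, 82998.2 and 84685.6 in organ of Corti, against 168918.4, 146910.2, 140323.8 and 136569.9 in stria (log2 -0.90 ± 0.11, adjusted p = 0.00043). Both genes were among the brightest on the array in both regions. The brain metallothionein Mt3 did not pass (log2 0.10). Gsta1, a glutathione transferase, had 4338.7, 3825.8, 4067.2 and 6270.1 in organ of Corti, against 8291.2, 7412.3, 20377.7 and 18715.6 in stria (log2 -1.44 ± 0.22, adjusted p = 0.0012). Its stria level was lower on both hypoxic arrays. Sod3, the extracellular superoxide dismutase, was lower by both probe sets (log2 -0.72 by the brighter and -1.81 by the other). Hmox1, which degrades heme, was lower at -0.57 (adjusted p = 0.026), a call lost when any of the 4 normoxic arrays was left out (adjusted p of 0.085 to 0.1). A second, dimmer probe set for Hmox1 was lower at -0.86 (adjusted p = 0.0034) and kept its call without each array. The regions overlapped for both probe sets. Sod1, at 0.28 and not passing, became a higher call with quantile normalization, which left 4 lower calls in the list, without Hmox1.

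Of 21 measured inflammatory mediators 10 were lower in organ of Corti than in stria, 11 did not pass and none was higher, against 6.11% lower among all genes. The list median was -0.95. The count of lower genes was 12 with either other scaling, 9 without the variance trend and 8 without the replicate block. The summed signal of the 21 genes was 34761 to 49094 in organ of Corti and 79188 to 109175 in stria. C3, the central complement protein, had 4079.6, 5315.0, 4329.2 and 7231.7 in organ of Corti, against 20436.1, 22361.1, 17040.9 and 18697.7 in stria (log2 -1.93 ± 0.14, adjusted p = 2.4e-05). Ccl2, which draws monocytes, had 16110.3, 9643.0, 20116.5 and 13447.1 in organ of Corti, against 32170.8, 24969.4, 46295.6 and 35812.5 in stria (log2 -1.25 ± 0.10). For both genes every stria array lay above every organ of Corti array, and a second probe set passed in the same direction. Il1b, the cytokine interleukin-1 beta, had 1021.8, 750.3, 1515.5 and 960.2 in organ of Corti, against 3183.5, 1421.2, 5955.7 and 3240.3 in stria. Its regions overlapped, since stria hypoxia repeat 2 lay below organ of Corti normoxia repeat 1 (log2 -1.56 ± 0.18, adjusted p = 0.00027). Cxcl2, which draws neutrophils, had 643.7, 378.9, 995.9 and 869.2 in organ of Corti, against 1452.5, 915.0, 3592.6 and 2165.5 in stria, with overlap by a single array of each region (log2 -1.38 ± 0.19). Nos2, the inducible nitric oxide synthase, had 856.1, 978.6, 1152.5 and 1589.1 in organ of Corti, against 2018.8, 2283.5, 2870.1 and 4008.6 in stria (log2 -1.27 ± 0.14), and 6 other, dimmer probe sets did not pass. The remaining lower members were Cx3cl1 (log2 -1.07), Ccl3 (-1.05), Tnfrsf1a (-0.68), Il1a (-1.67, adjusted p = 0.013) and Tgfb1 (-0.95, adjusted p = 0.04). The calls for Tgfb1 and Il1a were lost without some single arrays, Il1a at an adjusted p of 0.053 without organ of Corti normoxia repeat 2, and Tgfb1 at 0.075 to 0.14. Il1rn (-1.75), Ccl5 (-1.70), Il6 (-0.54), Ptgs2 (-0.17) and Ccl20 (0.16) did not pass. The macrophage marker Itgam, the single measured gene of its list, was not above background in either region, and a part of leukocytes in these differences was not tested.

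Many inflammatory genes carry kappa B sites, the binding sequence of the NF-kappa B factors. The promoters of Cxcl2 and Vcam1, which were both lower in organ of Corti and hold such a sequence, are shown. They lie at chr14:17467256-17467505 for Cxcl2 and chr2:206742784-206743033 for Vcam1 (RefSeq, build GRCr8, minus strand). Capitals mark matches to a form of the kappa B consensus with some variable positions fixed as T and the others left unspecified. Sites with other bases at the fixed positions were not counted.
Cxcl2: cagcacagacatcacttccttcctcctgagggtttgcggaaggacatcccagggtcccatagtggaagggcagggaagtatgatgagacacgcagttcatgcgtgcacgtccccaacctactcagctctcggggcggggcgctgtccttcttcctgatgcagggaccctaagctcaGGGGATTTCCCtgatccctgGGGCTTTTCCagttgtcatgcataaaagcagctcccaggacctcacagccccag
Vcam1: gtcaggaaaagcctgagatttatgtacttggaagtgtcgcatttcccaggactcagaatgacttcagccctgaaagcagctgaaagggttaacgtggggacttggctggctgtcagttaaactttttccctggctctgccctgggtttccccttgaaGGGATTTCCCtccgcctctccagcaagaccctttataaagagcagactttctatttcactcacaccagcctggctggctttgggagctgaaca
On both strands the search found 3 matches in Cxcl2, of which some overlap so that they form 2 stretches, and 1 in Vcam1. This pattern lay in 4.36% of all promoters of this length and in 29 of 559 on the array (5.19%). It lay in 2 of 79 for genes higher in organ of Corti (2.53%) and in 5 of 34 for genes lower (14.7%). Of the lower inflammatory genes with a promoter in the table, 1 of 7 held it. Vcam1, which lets leukocytes attach to endothelium, had 1998.2, 1537.5, 1364.3 and 1680.6 in organ of Corti, against 3646.3, 4277.9, 4889.6 and 4621.5 in stria (log2 -1.40 ± 0.16, adjusted p = 0.00024). Icam1, its relative in leukocyte adhesion, had 9030.7, 9973.7, 8310.8 and 8863.1 in organ of Corti, against 20755.2, 21759.0, 15355.6 and 19620.0 in stria (log2 -1.09 ± 0.09). These 2 were the lower members among 5 measured genes of endothelium and pericytes, and Edn1 at -0.16 and Pdgfrb at 0.15 did not pass.

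Other genes with a clear excess in stria had roles in antigen presentation, lipid signalling and survival. B2m, the light chain of class I histocompatibility molecules, had 16608.3, 13470.3, 22560.3 and 20204.9 in organ of Corti, against 35108.7, 35072.1, 59079.5 and 55551.8 in stria (log2 -1.33 ± 0.09, adjusted p = 1.7e-05). Irf1, a transcription factor of the interferon response, had 7835.8, 5613.4, 7078.7 and 5564.0 in organ of Corti, against 14120.3, 11582.9, 21076.4 and 17683.5 in stria (log2 -1.28 ± 0.14). Enpp2, the enzyme autotaxin that makes lysophosphatidic acid, had 4121.8, 4157.9, 5039.7 and 4705.3 in organ of Corti, against 11070.1, 10990.3, 12665.7 and 12140.7 in stria. Its regions were far apart with little spread in either (log2 -1.38 ± 0.09, adjusted p = 1.1e-05). Birc2, an inhibitor of apoptosis, had 229.3, 332.7, 89.5 and 392.3 in organ of Corti, against 989.2, 1231.9, 610.3 and 551.3 in stria, where 2 of the organ of Corti arrays were above background (log2 -1.73 ± 0.39).

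The growth factor lists were split. Igf1, insulin-like growth factor 1, had 23955.6, 24809.3, 22876.0 and 24406.0 in organ of Corti, against 46571.5, 46319.2, 47586.6 and 44689.6 in stria (log2 -0.95 ± 0.08, adjusted p = 6.3e-05), and 4 further probe sets passed in the same direction. Igf2, its fetal relative, had 50814.2, 69057.3, 50418.2 and 71404.6 in organ of Corti, against 28315.7, 47821.8, 18403.4 and 33219.4 in stria (log2 0.98 ± 0.14). The regions overlapped for neither gene by the probe sets given. A further probe set for Igf2 passed as higher. Others did not pass, with log2 differences of -0.11 to 0.66 in hypoxia and -0.01 to 0.27 in normoxia. The binding protein Igfbp2 was lower (log2 -0.83) and Igfbp3 higher (0.69) among the 10 genes of the axis, and the call for Igfbp3 was lost with centring. Of 13 measured genes of the FGF, PDGF and TGF beta families, Tgfb2 was higher (log2 0.71) and Fgfr4 (-0.87), Pdgfa (-0.53), Fgfr1 and Tgfb1 were lower. Without the variance trend, or without repeat as a block, 1 was higher and 1 lower, and with centring none was higher and 6 were lower. Beside Ntf3, Gdnf was the other gene that passed by its brightest probe set among 10 of neurotrophin and GDNF signalling. It was lower by at least 1.27-fold (adjusted p = 0.022), with the call lost in 5 of the 8 fits with an array left out (adjusted p of 0.053 to 0.091). A probe set for Bdnf also passed as higher, with log2 differences of 3.04 in hypoxia and 2.71 in normoxia, while the other probe sets for Bdnf did not pass.

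Glial, matrix and stress genes differed less. Of 6 measured genes of Schwann cells and myelin 3 were higher, Mbp, the neural crest factor Sox10 (log2 0.77 ± 0.11) and S100b (0.55 ± 0.11), while the myelin enzyme Cnp at -0.15 did not pass. With centring 2 of the 6 were higher and 1 lower, and the call for S100b was lost (log2 0.23, adjusted p = 0.16). A second probe set for S100b gave 0.03 and did not pass. Sox10 is also a gene of melanocytes, and it was the single passing gene of the 3 measured there. In the list of fibroblasts and matrix, the intermediate filament Vim was higher (log2 0.71) and Pou3f4, a transcription factor of the mesenchyme around the cochlea, lower (-0.68), against 0 higher and 3 lower with centring. Of 5 heat shock genes Hspa1a, the inducible Hsp70, was higher (log2 1.11 ± 0.12) with 11955.1, 13620.9, 15895.2 and 13480.9 in organ of Corti, against 6674.2, 6256.4, 7268.6 and 5250.3 in stria. Hspb1 was higher at 0.57, a call lost with centring, without the replicate block (adjusted p = 0.18) and in 6 of the 8 fits with an array left out (0.076 to 0.12). Centring gave 1 higher and 3 lower genes in this list. Of 6 genes of hypoxia and glucose uptake Igfbp3 passed as higher, and Hif1a at -0.36 did not pass, against 0 higher and 2 lower with centring. Among 7 calcium pumps and exchangers Atp2a3 was higher (0.84), a call lost with centring and without organ of Corti normoxia repeat 2 (adjusted p = 0.055).

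**Figure D2:**
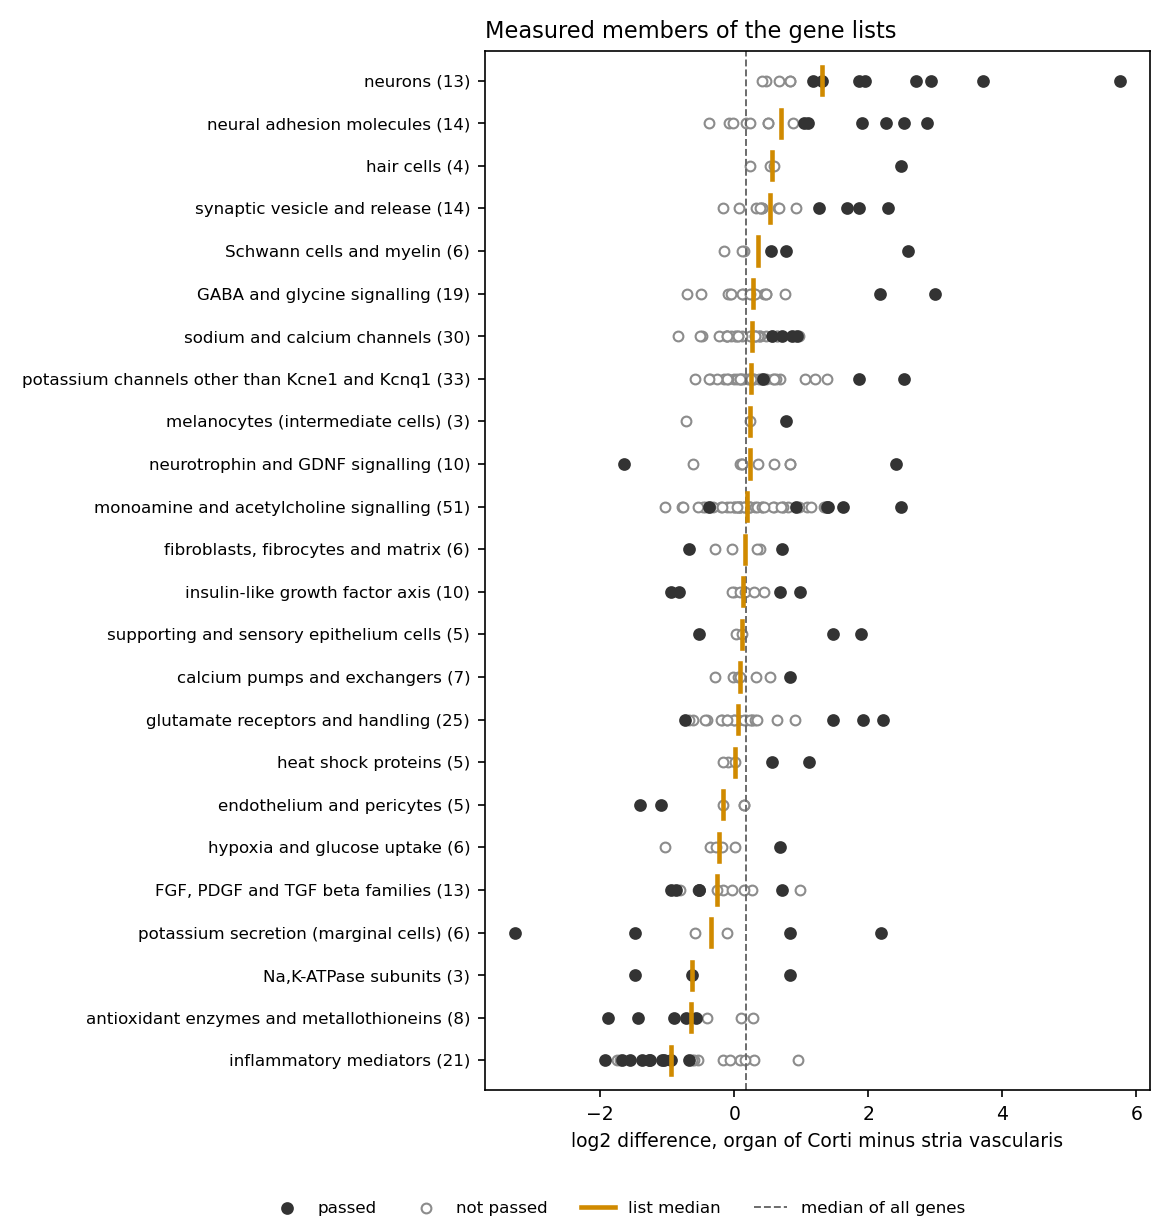
Log2 difference, cultured organ of Corti minus cultured stria, of each measured gene in the lists with 3 or more measured genes; filled points passed the test, open points did not, the bar is the list median and the dashed line the median of all genes at 0.17. Neuronal markers have their median at 1.31 and inflammatory mediators at -0.95, while most channel and receptor lists lie near the dashed line.

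The comparison was repeated within each oxygen condition, which shows how far the difference between the regions held in both. In hypoxia 167 probe sets passed (13.2%), 102 higher (8.08%) and 65 lower (5.15%) in organ of Corti. In normoxia 165 passed (13.1%), 101 higher (8.0%) and 64 lower (5.07%). The 121 that passed in both conditions all had the same sign. All 261 probe sets that passed over both conditions had the same sign in each. They were chosen by their difference over both conditions in these same arrays, which makes opposite signs unlikely beforehand. The test of the difference itself, the interaction of region with oxygen, passed for 1 probe set (0.0792%), while 105 had an unadjusted p of 0.05 or less. That was Nnat, neuronatin, a small membrane protein from an imprinted gene, with 13741.0, 26732.2, 14216.6 and 25954.9 in organ of Corti, against 13095.8, 25380.2, 5187.5 and 10969.0 in stria. The log2 difference between the regions was 0.07 in hypoxia and 1.35 in normoxia, and organ of Corti was higher in both repeats of each condition. The interaction was -1.27 (adjusted p = 0.05), and it was lost when any 1 of the 8 arrays was left out, with pseudocount 1, with quantile normalization, without the variance trend and without the replicate block. The next probe sets, for Prnp (1.02, adjusted p = 0.26), Adra1a (3.56), Eno2 (-0.78) and Gsta2 (-5.31), did not pass.

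**Figure D3:**
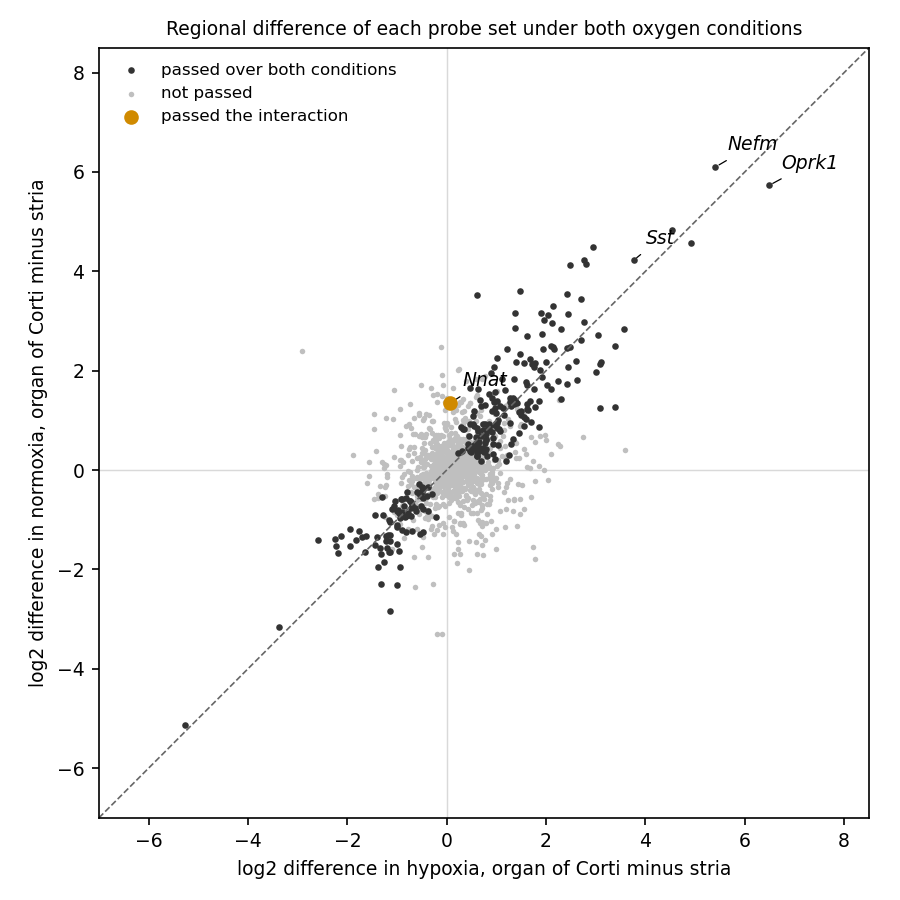
Log2 difference, organ of Corti minus stria, in hypoxia on the horizontal axis and in normoxia on the vertical axis for 1263 probe sets; dark points are the 261 that passed over both conditions. The dark points lie in the quadrants of equal sign, which their choice over both conditions favours. Nnat, the probe set that passed the interaction test, lies near 0 in hypoxia and at 1.35 in normoxia.

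Native tissue gave levels that the comparison had not used, from 2 arrays of organ of Corti and 1 of stria. The native stria array has a label that calls its tissue fresh and a protocol text that also mentions 24 h of culture. Of the 175 probe sets higher in cultured organ of Corti 154 (88.0%) were also higher in the native pair of regions, against 54.2% of all probe sets. Of the 86 lower 72 (83.7%) were lower there, against 45.8% of all. The difference between the regions changed between culture and native tissue for 26 probe sets (2.06%), with 9 more positive in culture (0.713%) and 17 more negative (1.35%). By gene these were 15 (2.08%), 5 more positive (0.694%) and 10 more negative (1.39%). An unadjusted p of 0.05 or less was found for 153 probe sets. This test assumed that the single native stria array varies like the other groups. Culture and scan session cannot be told apart in it, since the native arrays were scanned apart from the cultures. RNA integrity moved with it too: the GAPDH 3′ to 5′ ratio was 1.15 to 1.39 on the 8 cultured arrays, against 3.39 and 3.80 on the native organ of Corti arrays and 3.84 on the native stria array. Its part in these differences was not tested.

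The neurofilament genes and Sncg had higher signals in native than in cultured organ of Corti. Nefh had 3903.0 to 7532.7 in cultured organ of Corti and 18915.8 and 21130.3 in native organ of Corti. In stria it had 626.2 to 1127.4 in culture and 373.5 in native tissue, and the log2 difference between the regions in culture minus that in native tissue was -2.96. Sncg likewise had a smaller regional difference in culture, by -3.34. Sst went the other way, with 161.3 and 95.6 in native organ of Corti and 104.0 in native stria, and its difference was larger in culture by 3.76. Mt1 had 5761.7 and 6151.4 in native organ of Corti, against 11233.1 in native stria. Mt2A had 747.7 and 942.0 in native organ of Corti, against 5359.7 in native stria, and its difference was smaller in size in culture (by 1.75). C3 had 42.8 and 32.4 in native organ of Corti, against 26.4 in native stria, with all 3 native arrays at or under background, and its difference in culture was more negative by -2.26 on the log2 scale. Ccl2 had 476.4 and 449.1 in native organ of Corti, against 539.6 in native stria, and the change was -1.03. Kcne1 had 1708.0 and 697.0 in native organ of Corti, against 52128.0 in native stria, where Kcnq1 reached 870.4 against a background of 485.0. In cultured modiolus, the core of the cochlea with the spiral ganglion, Ccl2 averaged 66335.9 ± 16607.6 (SD, n = 4), above both regions, and Nefm 2377.0 ± 967.4, between them.

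**Figure D4:**
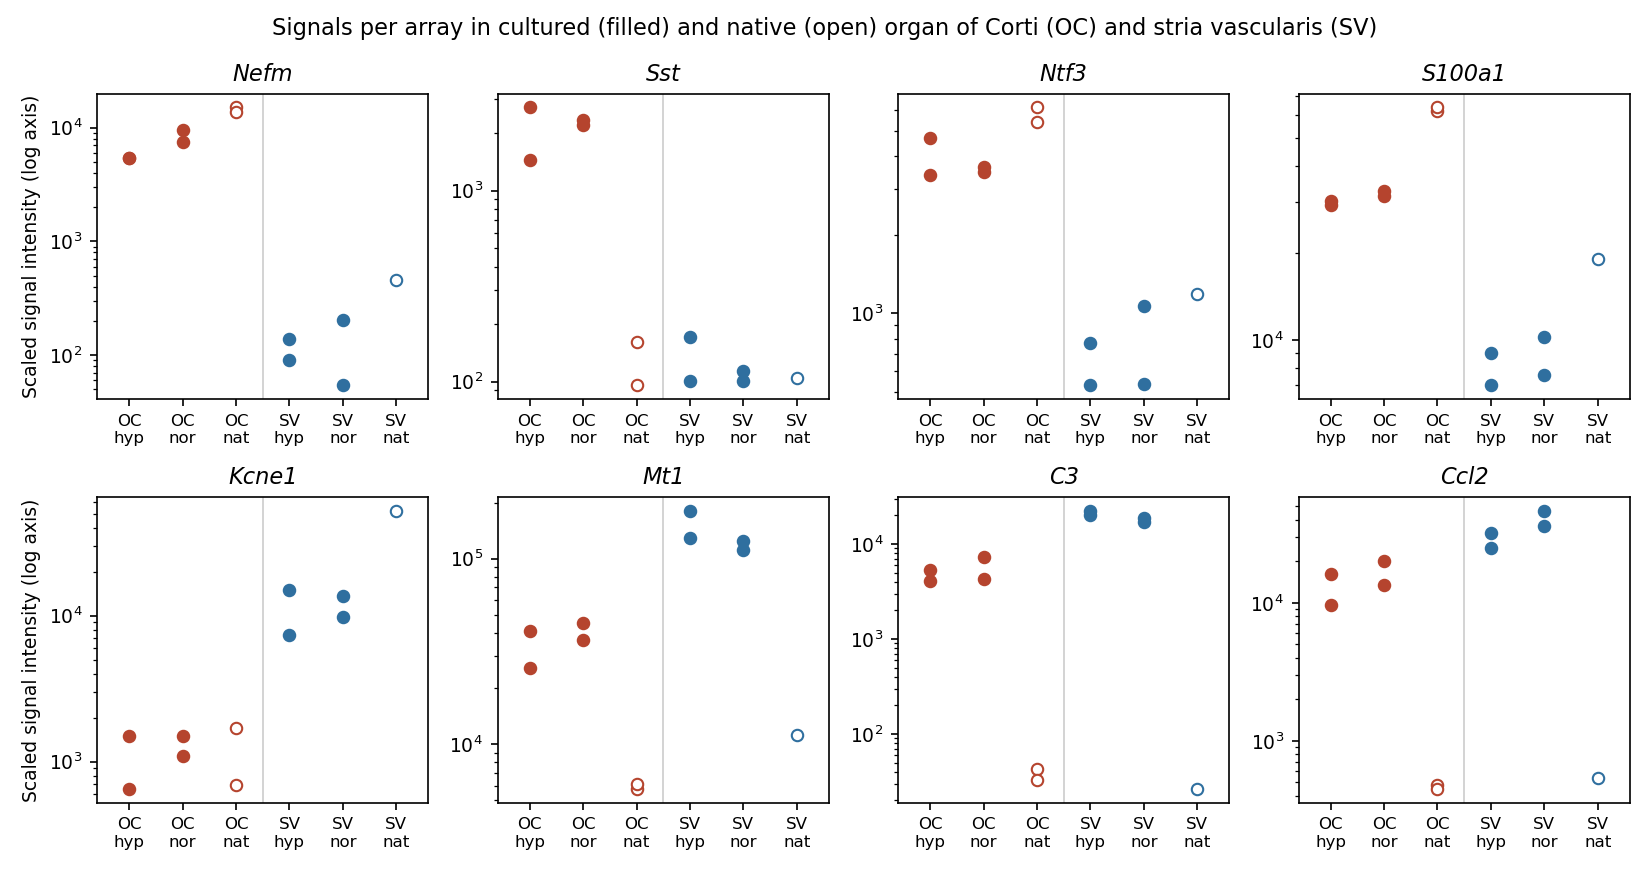
Signal per array, on a log axis, of 8 genes in organ of Corti and in stria under hypoxia, normoxia and in native tissue (open points). Nefm, Ntf3 and S100a1 are higher in organ of Corti in every condition and Kcne1 in stria; C3 and Ccl2 are below 1000 in native tissue of both regions and Sst is at 95.6 to 161.3 there.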

How the data were processed

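The values in the deposited table are intensities on a linear scale, 1 for each of 1322 probe sets of Affymetrix Rat Neurobiology U34 arrays. Per the values, the authors scaled all arrays alike: the mean after trimming 2% was 2500 throughout. The summary software is not given in the sources used here. Tests used log2(value + 16) of 1263 probe sets, without 59 controls. Of these, 1137 had 1 symbol (1132 found in a current gene table), 8 had several and 118 had none. Lists took the brightest probe set per gene, since 276 of 720 genes had more than 1. Not above background means that all arrays of a region lay at or under the 95th percentile of their foreign controls, to which signals were raised for at-least folds.

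The main model had region, oxygen and repeat as terms for 8 arrays (limma 3.58.1 in R 4.3.3, with statmod 1.5.0) and left 4 residual degrees of freedom. It used moderation with a variance trend, two-sided tests and Benjamini-Hochberg adjustment over 1263 probe sets at 0.05. Other fits took the oxygen conditions apart, their interaction with region, and the difference from native tissue in a model of all 16 arrays. Errors are standard errors of the fit unless named SD. Repeat was kept as a block because it is the scan session. The pairing check gave residual correlations of 0.13 to 0.28 for same-numbered arrays, in 6 pairs of groups. In simulations that changed 200 of 1263 probe sets, the region test found 50% of 2-fold and 86.8% of 4-fold changes, and the interaction test 10% and 38.8%. The rule named the 12 largest passing differences each way (1 symbol, no overlap, bright in the higher region), all measured potassium secretion, hair cell and supporting cell genes, and up to 4 genes of each other list. Further passing members were named after their values were seen. The comparison, members and lists were chosen with earlier results of these data known. Alternatives were other pseudocounts, scalings, filters, weights and blocks, and arrays left out in turn.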

Additional observations from a re-analysis of the deposited data

Results flagged for a closer look

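In 9 of 214 sets of 4 arrays examined, 1 array lay far from the other 3, and chance alone gives about 1 in 20. In organ of Corti hypoxia repeat 1, Hes1 had 4934.2 (others 5447.3 to 5527.4), Rab3a 1949.0 (others 3230.6 to 3431.9), Tgfb2 2726.0 (others 2429.0 to 2446.4) and Htr3a 3589.1 (others 2775.6 to 2843.7). In organ of Corti hypoxia repeat 2, Mapk8ip2 had 1519.1 (others 1684.4 to 1689.5), and in organ of Corti normoxia repeat 2, Mbp had 1317.2 (others 1665.8 to 1725.1). In stria hypoxia repeat 1, Mapk8ip2 had 872.9 (others 159.9 to 189.7). In stria normoxia repeat 1, Nefl had 183.2 (others 391.9 to 413.3) and Kcnj11 had 1051.7 (others 467.9 to 546.4).

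The difference between organ of Corti and stria differed between hypoxia and normoxia for Nnat, by -1.27 on the log2 scale. Between culture and native tissue it differed for 13 of the genes described, each by the probe set used for it in the comparison of the regions. It was more positive in culture for Sst (3.76), Nnat (1.79), Mt2A (1.75), Hmox1 (0.95) and S100b (0.94). It was more negative in culture for Sncg (-3.34), Nefh (-2.96), Ncam1 (-2.65), C3 (-2.26), Enpp2 (-1.54), Gsta1 (-1.46), Eno2 (-1.40) and Ccl2 (-1.03). The native stria level rests on 1 array, and the GAPDH 3′ to 5′ ratios were 1.15 to 1.39 in culture and 3.39 to 3.84 in native tissue of the regions.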

How the results depend on the processing

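Of the 24 genes with the largest differences, all kept their call without each of the 8 arrays in turn. Their sign was the same in both scan sessions, which the choice of genes without overlap between regions had fixed beforehand. Being chosen as the largest differences also favoured keeping the call. Of 76 named probe sets that passed, 67 kept the call without each array. Leaving out each array gave 201 to 230 calls between the regions (127 to 151 higher and 72 to 83 lower in organ of Corti), 93 to 174 in hypoxia, 119 to 170 in normoxia, 0 to 0 for the interaction, and 15 to 26 for culture against native tissue. The hypoxia count was 99 without organ of Corti repeat 1, 97 without organ of Corti repeat 2, 93 without stria repeat 1 and 103 without stria repeat 2.

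With the repeat 1 arrays alone 69 probe sets passed (38 higher and 31 lower). Median centring gave 102 higher and 170 lower, and 12 named probe sets lost their call. The replicate block mattered for single conditions: with no replicate block 106 passed in hypoxia, 0 for the interaction and 15 for culture against native tissue, and no other count over all probe sets moved by over 1.5 times (205 between the regions, 120 in normoxia). Without the block 7 of 107 named probe sets lost their call. Without the variance trend 81 passed in normoxia, 67 in hypoxia, 0 for the interaction and 8 for culture against native tissue. The interaction also had 0 calls with pseudocount 1 and with quantile normalization. The cause of these changes was not tested, except that fewer arrays were used in the first. No called difference of a named gene changed sign under any alternative, and 1 other called probe set did so with centring. Signal over background limits the fitted differences of dim genes, and the number of arrays limits the precision of all values. The alternatives for culture against native tissue were chosen after seeing the data.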
